A study of Botryllus schlosseri with 78 samples.

Results

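Cells of Botryllus schlosseri sorted as positive or negative for aldehyde dehydrogenase (ALDH) were compared within 4 individuals. The comparison uses 8 of the 77 RNA sequencing libraries with values, chosen by their labels: every library of the ALDH sort, 4 ALDH-positive and 4 ALDH-negative, over all 137 transcripts of the table. Each individual, named 1, 2B, 6 and 7, gave 1 library of each fraction. The labels give the source as cells of whole colonies, with no agent, treatment, age or stage for either fraction, and neither gates nor purity of the sort are given in the sources used here. Library names call individuals 2B and 6 winners and 1 and 7 losers, without saying in what. The study as a whole also sequenced blood, other sorted cells, ampullae, whole bodies and male colonies, and its title concerns the diversity of allorecognition receptors.

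Botryllus schlosseri is a colonial tunicate, an invertebrate chordate. When colonies meet, the highly variable Fuhc locus decides between fusion and rejection, and receptors of the fester family take part in that decision. The blood of fused colonies mixes, and mobile stem cells of one colony can then settle in the other. Aldehyde dehydrogenases oxidise aldehydes, and a fluorescent substrate of these enzymes is widely used to enrich stem and progenitor cells in vertebrates. In this tunicate the same sort has been used for candidate stem cells.

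The table holds 45 transcripts named FF, read here as the fester family, 69 named FcoR, which per the series record were found by searches that began from fester sequences, 4 products of the Fuhc locus and 19 signalling proteins. No function of single FF or FcoR members is known from the sources used here, and the roles given below for signalling proteins are those known from vertebrates. No ALDH gene and no marker of germ cells, blood cells, vessels or muscle is among the 137 transcripts, so the sort could not be checked against its own gene. Values are read as TMM-scaled TPM, a length-corrected share of the transcripts quantified. Sums over the 137 transcripts ran from 753232 to 1162393 in the 8 libraries, near the total of TPM values, so single values behave nearly as shares of this set and depend on each other. In sorted bulk cells, fewer cells of a type and less RNA per cell cannot be told apart. Depth is unknown, because no read totals are given. The negative library of individual 7 shared more receptors with both libraries of individual 2B than with the positive library of 7, so the main results are given with and without individual 7.

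In shares of the library sum, both receptor families stood higher in ALDH-positive cells of every individual and the signalling proteins lower. FF transcripts made up 13.6%, 16.04%, 12.7% and 13.6% of the sum in the negative fractions of individuals 1, 2B, 6 and 7, and 18.6%, 21.2%, 17.1% and 19.4% in the positive fractions. Every positive fraction was above every negative one. The means were 19.1% ± 1.69 (SD, n = 4) against 14.0% ± 1.44 (SD, n = 4). An exact two-sided permutation of the fractions within individuals gave p = 0.125 for the FF share, the smallest p that 4 pairs allow. Permuting all 8 libraries without the pairing, an alternative chosen after seeing the data, gave an exact two-sided p of 0.0286.

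The FcoR share was 10.9%, 11.1%, 6.50% and 15.3% in the negative fractions and 13.8%, 11.4%, 9.93% and 18.7% in the positive fractions, in the same order of individuals. It was higher in the positive fraction of all 4, by little in individual 2B, and the groups overlapped. Signalling proteins held 66.6%, 52.8%, 66.8% and 61.9% of the negative and 55.1%, 46.9%, 60.1% and 46.8% of the positive libraries. Their share was lower in every individual and the groups overlapped. The exact permutation p within individuals was 0.125 for both. Without the pairing, the exact two-sided permutation p was 0.4 for FcoR and 0.114 for signalling. The Fuhc share went in no common direction.

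**Figure D1:**
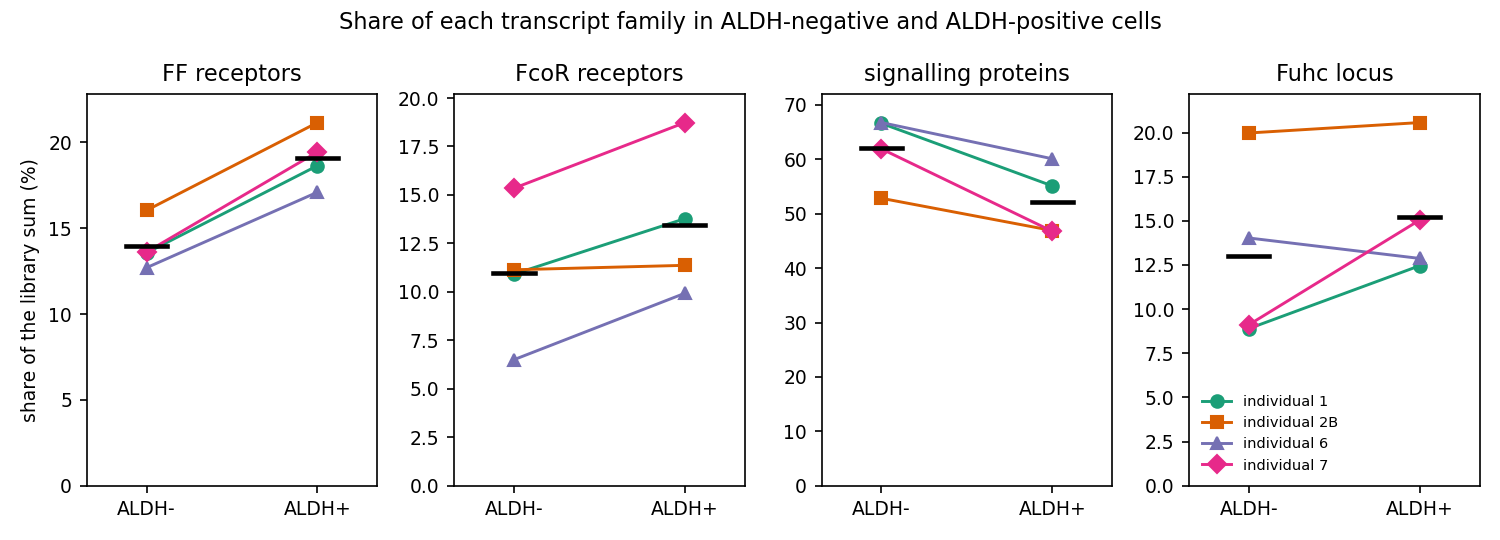
Share of the library sum (%) held by FF receptors, FcoR receptors, signalling proteins and Fuhc products in the ALDH-negative (ALDH-) and ALDH-positive (ALDH+) library of each individual; lines join the libraries of an individual and black bars are means over 4. The FF share lies between 12.7% and 16.04% in negative and between 17.1% and 21.2% in positive cells.

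On the values as deposited the picture was weaker for receptors. The log2 difference of the summed FF values, positive minus negative, was 0.71, 0.29, -0.20 and 0.47 in individuals 1, 2B, 6 and 7, with a mean of 0.32 ± 0.38 (SD, n = 4) and an exact permutation p of 0.25. Individual 6, whose libraries differed most in their sums (1162393 against 753232), was the only one with a lower FF sum in its positive fraction. For summed FcoR values the mean was 0.18 ± 0.30 (SD, n = 4), p = 0.5 in the exact permutation test, with higher values in 2 of 4 individuals. Summed signalling values were lower in 4 of 4 individuals, with log2 differences of -0.02, -0.28, -0.78 and -0.45 and a mean of -0.38 ± 0.32 (SD, n = 4). The exact permutation p was 0.125, the smallest possible. Permuting all libraries without the pairing gave an exact p of 0.0286, but sets aside that each individual gave both fractions. Without individual 7 the mean log2 differences of the sums were 0.27 for FF, 0.16 for FcoR and -0.36 for signalling, in an exact permutation test that cannot go below p = 0.25 with 3 pairs.

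Transcript by transcript, no difference passed the adjusted threshold of 0.05. Of the 89 transcripts at a value of at least 1 in at least 4 of the 8 libraries, limma with the individual as block called 0 (0%), and the smallest adjusted p was 0.168. At an unadjusted p under 0.05 there were 9 (10.1%), 4 higher and 5 lower in positive cells. Without individual 7, 86 transcripts were tested, 0 passed (0%), and 11 (12.8%) had an unadjusted p under 0.05, with a smallest adjusted p of 0.281. The 11 include FcoR47, which met the filter only through its positive libraries. They also include FcoR28 and FcoR59, each found in only 1 negative library there, whose positive libraries alone would meet the filter. The same holds for FcoR28 over all individuals, where it is among the 4 higher of the 9. Of the 89, 13 (14.6%) were higher in every positive fraction and 10 (11.2%) lower in every one. Of the 19 signalling transcripts tested, 6 were among the 9 with an unadjusted p under 0.05, 1 higher and 5 lower. The median log2 difference was 0.28 over 19 FF transcripts, 0.50 over 47 FcoR, -0.22 over 19 signalling and 0.06 over all 89. A further 18 transcripts were below a value of 1 in all 8 libraries.

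Among the FF receptors, 19 of 45 could be tested, and 3 were higher in all 4 positive fractions, FF8, FF13 and FF22. Over all transcripts tested, 13 of 89 (14.6%) were. FF13 was found in every library. It measured 8051, 1596, 6933 and 3430.2 in the negative fractions of individuals 1, 2B, 6 and 7, and 16405, 6177, 8531 and 8368 in the positive fractions. Each positive value exceeded that of its own negative fraction, by least in individual 6, while the groups overlapped. The means were 9870.4 ± 4487 against 5003 ± 3005 (SD, n = 4), a log2 difference of 1.14 ± 0.31 (SE) with an adjusted p of 0.176. Without individual 7 it was 1.09 ± 0.39 (SE), adjusted p 0.360.

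FF22, the FF transcript with the highest mean, was carried at high level by individuals 2B and 7. Its values were 7438, 41418, 0 and 27573 in negative and 8399, 45813, 62.6 and 38558 in positive cells, in the same order. The difference was small in 3 individuals, and in individual 6 the transcript was at 0 in the negative fraction and low in the positive. FF8 was lower in level, at 917, 0, 0 and 0 in negative and 1664, 389.9, 0.0830 and 547 in positive cells. Its positive fraction was the only one with a value of at least 1 in individuals 2B and 7, and it was below 1 in both fractions of individual 6, so its place among the 3 rests on the other individuals. FF22 had a log2 difference of 1.70 ± 1.16 (SE) with an adjusted p of 0.593, and FF8 one of 4.67 ± 1.998 (SE) with an adjusted p of 0.433. Without individual 7 these were 2.10 ± 1.43 (SE) for FF22 and 3.19 ± 2.42 (SE) for FF8, adjusted p 0.563 and 0.563.

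The other abundant FF transcripts had no common direction. FF12, found in all 8 libraries, stood at 13819.7, 17041, 14728 and 8954 in negative and 28433, 22235, 10334 and 11019 in positive cells, higher in 3 of 4 individuals. FF44 differed by 0.54, -0.04, -0.30 and 0.93 (log2) in individuals 1, 2B, 6 and 7, and FF3 by -0.67, 0.40, -0.45 and 0.51. FF29 split the individuals rather than the fractions: in individuals 1 and 6 it was the leading FF transcript of both fractions, at 24226, 572, 35825 and 259 in the 4 negative and 37964, 72.2, 28739.8 and 149 in the 4 positive libraries. FF7 was at 11124, 11197, 14952 and 6995 in negative and 15678, 15006, 12873 and 1041 in positive cells, and only individual 7 showed a large difference, a lower value in its positive fraction. With all individuals the log2 difference of FF7 was -0.51 ± 0.62 (SE), and without individual 7 it was 0.23 ± 0.24 (SE), adjusted p 0.692 and 0.603.

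FF1 and FF25 were each absent from some individuals. FF1 was abundant in both fractions of 2B and 7, at 0, 14594, 0 and 12593 in negative and 1445, 15920.1, 0 and 18652 in positive cells, and in individual 1 it was found in the positive fraction only. FF25 measured 0, 23987, 0 and 5093 in negative and 0, 31034, 134 and 0 in positive cells. It was the second FF transcript of both 2B libraries, and in individual 7 it was found in the negative fraction only. Its log2 difference was -1.22 ± 3.33 (SE) over 4 individuals and 2.48 ± 2.09 (SE) without individual 7, with adjusted p-values of 0.867 and 0.563.

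Of 69 FcoR transcripts, 47 could be tested, and 9 were higher in every positive fraction: FcoR1, FcoR3, FcoR4, FcoR9, FcoR28, FcoR36, FcoR46, FcoR63 and FcoR73. FcoR45 alone was lower in all 4. Over all transcripts tested, 14.6% were higher and 11.2% lower in every positive fraction. FcoR63 had the most even difference. Its values were 1931, 296, 681 and 878 in negative and 5059, 998, 1984 and 3133 in positive cells of individuals 1, 2B, 6 and 7, so that the ratios of positive to negative were 2.62, 3.37, 2.92 and 3.57. The groups overlapped across individuals, since the highest negative value exceeded the lowest positive one. The log2 difference was 1.63 ± 0.35 (SE), with a 95% interval of 0.72 to 2.54 and an adjusted p of 0.168. Without individual 7 it was 1.56 ± 0.40 (SE), adjusted p 0.301. When only the 40 transcripts found in all 8 libraries were tested, a filter chosen after seeing the data, FcoR63 passed with an adjusted p of 0.0416, as did PAK1.

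FcoR3 varied more, at 75.8, 1385, 1398 and 230.1 in negative and 1989.6, 2577, 2012 and 1865 in positive cells. All positive libraries lay above all negative ones, and the negative fractions of individuals 1 and 7 were far below those of 2B and 6. Its log2 difference was 2.28 ± 0.89 (SE), adjusted p 0.433, and 2.04 ± 1.04 (SE) without individual 7, adjusted p 0.563. FcoR28 was listed at 0 in 3 negative fractions, with 0, 2260.4, 0 and 0 in negative and 1770.3, 6255, 1648 and 215 in positive cells. In individual 2B, where both fractions held it, the ratio was 2.77. The fitted log2 difference of FcoR28, 7.68 ± 1.97 (SE) with an adjusted p of 0.176, depends on the pseudocount of 1 against these zeros and gives no fold change.

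FcoR47, like FcoR28, was found in the positive fraction of 3 individuals and listed at 0 in their negative fractions. It measured 683, 109, 1322 and 0 in the positive libraries of individuals 1, 2B, 6 and 7 and 0, 0, 0 and 0 in the negative ones. With values in 3 of 8 libraries it was below the filter and was not tested over all 4 individuals. Without individual 7 it met the filter through its positive libraries alone, and it is among the transcripts with an unadjusted p under 0.05 there. That fit depends on the pseudocount of 1 against zeros, so it lends no support to a difference.

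FcoR23 changed sign when individual 7 was left out. Its values were 5675, 1753, 2328 and 843 in negative and 12381, 6942, 9432 and 0 in positive cells. In individuals 1, 2B and 6 the positive fraction held the higher value, with ratios of 2.18, 3.96 and 4.05, while in individual 7 it was listed at 0 there. The log2 difference was -1.15 ± 2.31 (SE) over 4 individuals, adjusted p 0.814, and 1.71 ± 0.29 (SE) without individual 7, adjusted p 0.281. FcoR59 was also at 0 in the positive fraction of individual 7 only, with 0, 493, 0 and 1164 in negative and 2535, 1621, 1704 and 0 in positive cells. Unlike FcoR23 it kept its sign. The log2 difference was 3.39 ± 4.11 (SE), and 7.92 ± 2.49 (SE) without individual 7, adjusted p 0.692 and 0.301. Both depend on the pseudocount of 1 against these zeros.

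FcoR72, the most abundant FcoR transcript, lay on the other side. It measured 22810.4, 43244, 14795 and 40851 in negative and 23348, 14713, 10484 and 25464 in positive cells, lower in the positive fraction of 3 individuals and about level in individual 1. It held 25.9%, 36.9%, 19.6% and 30.0% of all FcoR signal in the negative fractions of individuals 1, 2B, 6 and 7. The log2 difference was -0.68 ± 0.29 (SE), adjusted p 0.433. Without FcoR72 the summed FcoR values were higher in the positive fraction of 4 of 4 individuals, by 0.74, 0.38, 0.08 and 0.51 (log2), with a mean of 0.43 ± 0.28 (SD, n = 4). FcoR72 was left out of this sum after its values were seen, so no test is given. FcoR45 measured 1459, 2191, 976 and 1079 in negative and 633, 1771, 453 and 329 in positive cells, a log2 difference of -1.08 ± 0.49 (SE) with an adjusted p of 0.433. FcoR1 was higher in all 4, with ratios of 1.22, 1.47, 1.13 and 1.97. The other 5 that were higher in all 4, FcoR4, FcoR9, FcoR36, FcoR46 and FcoR73, had fitted log2 differences from 0.45 to 5.42 and adjusted p-values from 0.433 to 0.616. Without individual 7 the log2 differences were 0.60 ± 0.42 (SE) for FcoR4, 4.33 ± 2.53 (SE) for FcoR9, 3.98 ± 2.55 (SE) for FcoR36, 4.59 ± 1.89 (SE) for FcoR46 and 0.85 ± 0.61 (SE) for FcoR73, with adjusted p-values from 0.452 to 0.563. Of these, 4 were listed at 0 in at least 1 negative fraction, FcoR4 being the exception.

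The other abundant FcoR transcripts separated individuals rather than fractions. FcoR12 measured 0, 5334, 0 and 9869 in negative and 0, 7182, 0 and 26667 in positive cells, and FcoR48 0, 1764, 0 and 16251 in negative and 0, 4128, 0 and 27202 in positive cells. Both were found in 2 individuals only, in both fractions. FcoR42 was likewise limited to 2B and 7, at 0, 5163, 0 and 7829.6 in negative and 0, 8587, 0 and 7831 in positive cells. Neither FcoR21 nor FcoR69 was found in every library. FcoR21 was at 14524, 257, 13443 and 0 in negative and 19629, 55.0, 10787 and 0 in positive cells. FcoR69 was at 7313, 4561, 0 and 642 in negative and 11780.0, 3712, 612 and 899 in positive cells. The adjusted p-values of these 5 lay between 0.603 and 0.942.

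**Figure D2:**
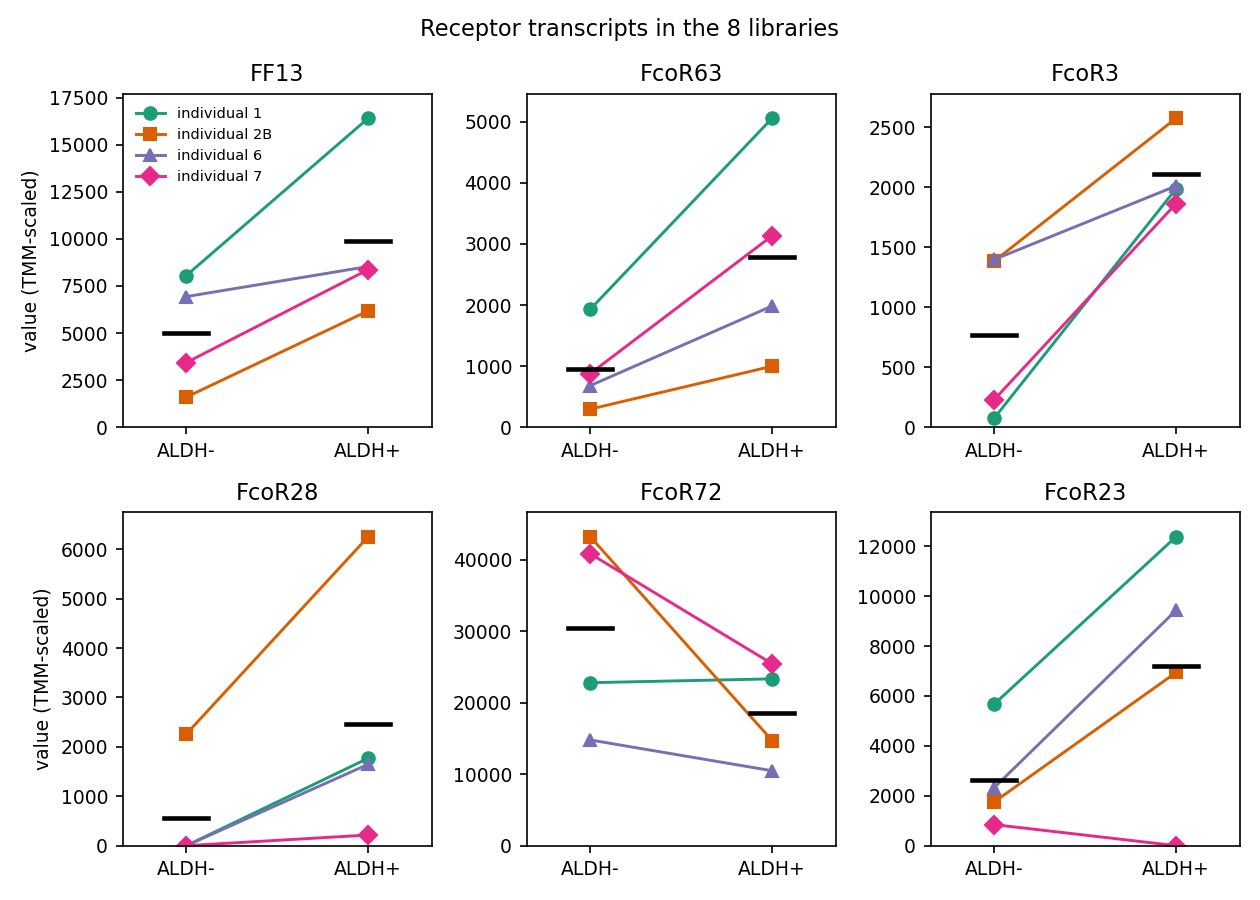
Values (TMM-scaled) of FF13, FcoR63, FcoR3, FcoR28, FcoR72 and FcoR23 in the ALDH-negative (ALDH-) and ALDH-positive (ALDH+) library of each individual; black bars are means over 4. FF13, FcoR63, FcoR3 and FcoR28 are higher in all 4 positive fractions, FcoR72 is lower in 3, and FcoR23 is at 0 in the positive fraction of individual 7.

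All 19 signalling proteins were found in all 8 libraries, so their differences do not rest on zeros. Of the 19, 8 were lower in every positive fraction (ERK, NF-kB, Grb2, MEK, Rac, PAK1, Sos and Shc) and 1, NFAT, was higher in every one, against 11.2% and 14.6% of all transcripts tested. The shares are not like for like, since a transcript absent from both fractions of an individual cannot differ in all 4. All 10 transcripts lower in every positive fraction were among the 40 found in all 8 libraries. These 8 are part of the 10. Nearest to a receptor in vertebrates, the tyrosine kinase SYK and Src-family kinases such as yes phosphorylate receptor tails and start the cascade. SYK measured 9353, 4257, 11775 and 8947 in negative and 11743, 6414, 8333 and 4257 in positive cells, and the yes-like kinase 28411, 30868, 48851 and 31406 in negative and 45277, 27939.7, 34412 and 14087 in positive cells. Both were higher in the positive fraction of individual 1 and lower in those of 6 and 7. The phosphatases that counter such kinases showed small differences: SHP2 differed by -0.27 ± 0.17 (SE) and the lipid phosphatase SHIP by -0.10 ± 0.18 (SE) on the log2 scale, adjusted p 0.549 and 0.789.

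The adaptors Shc and Grb2, which link phosphorylated receptors to the exchange factor Sos and so to Ras, were lower in every positive fraction. Shc measured 22847, 31573, 28928 and 24865 in negative and 17323, 20210.4, 15161 and 16288 in positive cells of individuals 1, 2B, 6 and 7. Every positive value lay below every negative one. The means were 17246 ± 2165 against 27053 ± 3934 (SD, n = 4), a log2 difference of -0.65 ± 0.14 (SE), adjusted p 0.168. Grb2 stood at 85420.4, 82696, 135960.0 and 85674 in negative and 76349, 62679, 61550.0 and 52369 in positive cells, without overlap of the groups. Its difference was widest in individual 6, and the fit gave -0.60 ± 0.20 (SE), adjusted p 0.332. For Sos the difference was small in all 4 individuals, -0.24, -0.10, -0.0014 and -0.21, and lower in each, but with the signalling and Fuhc sum held equal between libraries it was higher, at 0.15. VAV, an exchange factor for Rac, was higher in 2 and lower in 2 individuals.

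Rac, a small GTPase of the actin skeleton, and PAK1, a kinase that Rac activates, were lower together with the adaptors. PAK1 measured 9913, 12991, 11628 and 19068 in negative and 4443, 8921, 3732 and 7904 in positive cells. No positive library reached a negative one. The means were 6249.9 ± 2548 against 13400.2 ± 3983 (SD, n = 4), and the log2 difference was -1.15 ± 0.23 (SE), with a 95% interval of -1.74 to -0.56 and an adjusted p of 0.168. Rac measured 88526, 98613, 148837 and 91719.7 in negative and 64981, 68817, 71914 and 66957 in positive cells, again without overlap. The positive values of Rac were close to each other in all individuals, and the negative value of individual 6 was the highest. Its log2 difference was -0.62 ± 0.16 (SE), adjusted p 0.176. With libraries rescaled by the geometric mean of the transcripts found in all 8, chosen after seeing the data, Rac passed with an adjusted p of 0.0226 and Shc with 0.0445.

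In the Ras cascade, Ras activates Raf, Raf activates MEK, and MEK phosphorylates ERK. MEK measured 38541, 40023, 35861 and 46295 in negative and 26013, 23941, 24851 and 24422 in positive cells. The positive libraries were nearly equal, and every negative library lay above them. The means were 24807 ± 886 against 40180.1 ± 4426 (SD, n = 4), a log2 difference of -0.69 ± 0.13 (SE) with a 95% interval of -1.04 to -0.34 and an adjusted p of 0.168. ERK was also lower in each positive fraction, with log2 differences of -0.17, -0.33, -1.40 and -0.24 and an adjusted p of 0.433. Its difference in individual 6 stood well apart from the other three. Ras and Raf had no common direction, with fitted differences of -0.11 ± 0.19 (SE) and -0.01 ± 0.23 (SE), adjusted p 0.789 and 0.968.

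NFAT, a transcription factor that calcium signals bring to the nucleus, was the signalling transcript with the largest difference in the other direction. It measured 3415, 2046, 1520.0 and 1773 in negative and 5552, 3574, 3281 and 5426 in positive cells. The positive fraction was higher in every individual, most in individual 7, and the lowest positive value was just below the highest negative one. The means were 4458 ± 1197 against 2189 ± 846 (SD, n = 4), a log2 difference of 1.06 ± 0.26 (SE), with a 95% interval of 0.37 to 1.74 and an adjusted p of 0.176. PLC-g, which starts the calcium signal upstream of NFAT, measured 3896, 2153, 3805 and 2166 in negative and 5590.2, 3962, 3392 and 4219.7 in positive cells, higher in 3 of 4 individuals and lower in individual 6. NF-kB, another transcription factor of immune receptors, differed by -0.22, -0.33, -0.95 and -0.04 (log2), lower in each. PI3K and PKC differed by -0.22 ± 0.20 (SE) and 0.03 ± 0.21 (SE), adjusted p 0.616 and 0.958.

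**Figure D3:**
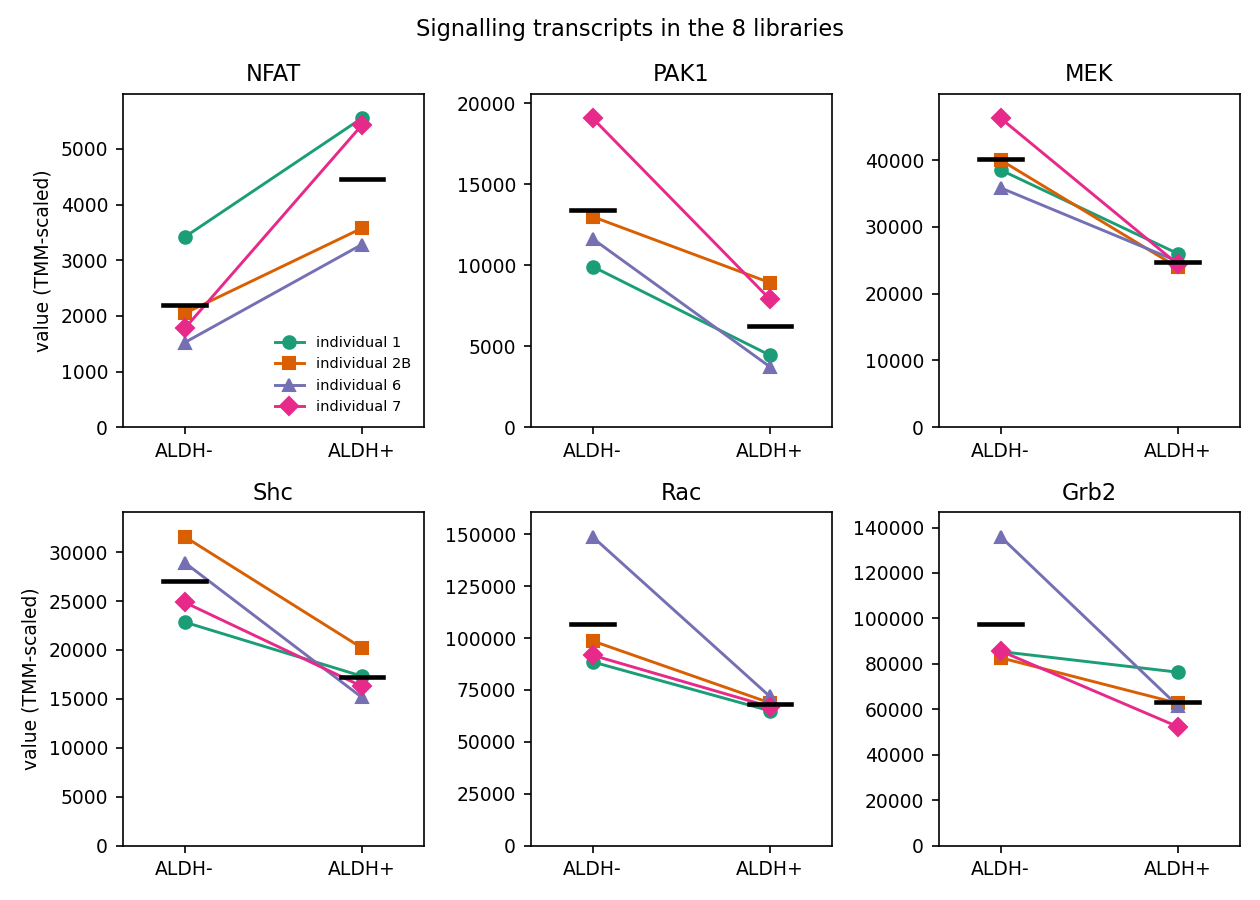
Values (TMM-scaled) of NFAT, PAK1, MEK, Shc, Rac and Grb2 in the ALDH-negative (ALDH-) and ALDH-positive (ALDH+) library of each individual; black bars are means over 4. NFAT is higher and the other transcripts are lower in all 4 positive fractions.

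Without individual 7, PAK1 was at -1.11 ± 0.29 (SE), MEK at -0.61 ± 0.18 (SE), Shc at -0.66 ± 0.20 (SE), Rac at -0.67 ± 0.23 (SE), Grb2 at -0.57 ± 0.28 (SE) and NFAT at 0.87 ± 0.27 (SE) on the log2 scale. Their adjusted p-values were 0.301, 0.301, 0.301, 0.356, 0.563 and 0.301. The log2 differences of SYK and of the yes-like kinase changed sign, from -0.16 ± 0.33 (SE) to 0.14 ± 0.30 (SE) and from -0.28 ± 0.32 (SE) to 0.01 ± 0.30 (SE), and that of PKC from 0.03 ± 0.21 (SE) to -0.08 ± 0.25 (SE). The share of the library sum held by FF and by signalling proteins differed in the same direction in individual 7 as in the other three.

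The Fuhc locus holds the polymorphic genes by which colonies recognise each other. BHF, the Botryllus histocompatibility factor, measured 32914, 161207, 133483 and 36255 in negative and 71082, 141608, 64786 and 99056 in positive cells, higher in the positive fraction of individuals 1 and 7 and lower in 2B and 6. FuHc-Sec, the secreted product, was at 13991, 33661, 19402 and 28166 in negative and 36527, 46123, 25835 and 14923 in positive cells. The transmembrane product FuHc-Tm was at 16589.6, 9036, 6476 and 8117 in negative and 6907, 7022, 2986 and 11249 in positive cells. In individuals 1, 2B and 6, FuHc-Sec was higher and FuHc-Tm lower in positive cells, and in individual 7 both were the other way round. The fitted log2 difference of FuHc-Tm was -0.57 ± 0.35 (SE) over 4 individuals and -0.91 ± 0.27 (SE) without individual 7, adjusted p 0.549 and 0.301. For FuHc-Sec it was 0.33 ± 0.39 (SE) and 0.75 ± 0.28 (SE), adjusted p 0.692 and 0.382. HSP40L, a heat shock protein gene of the locus, was lower in all 4 positive fractions, with log2 differences of -0.61, -0.14, -0.15 and -1.03, adjusted p 0.433.

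**Figure D4:**
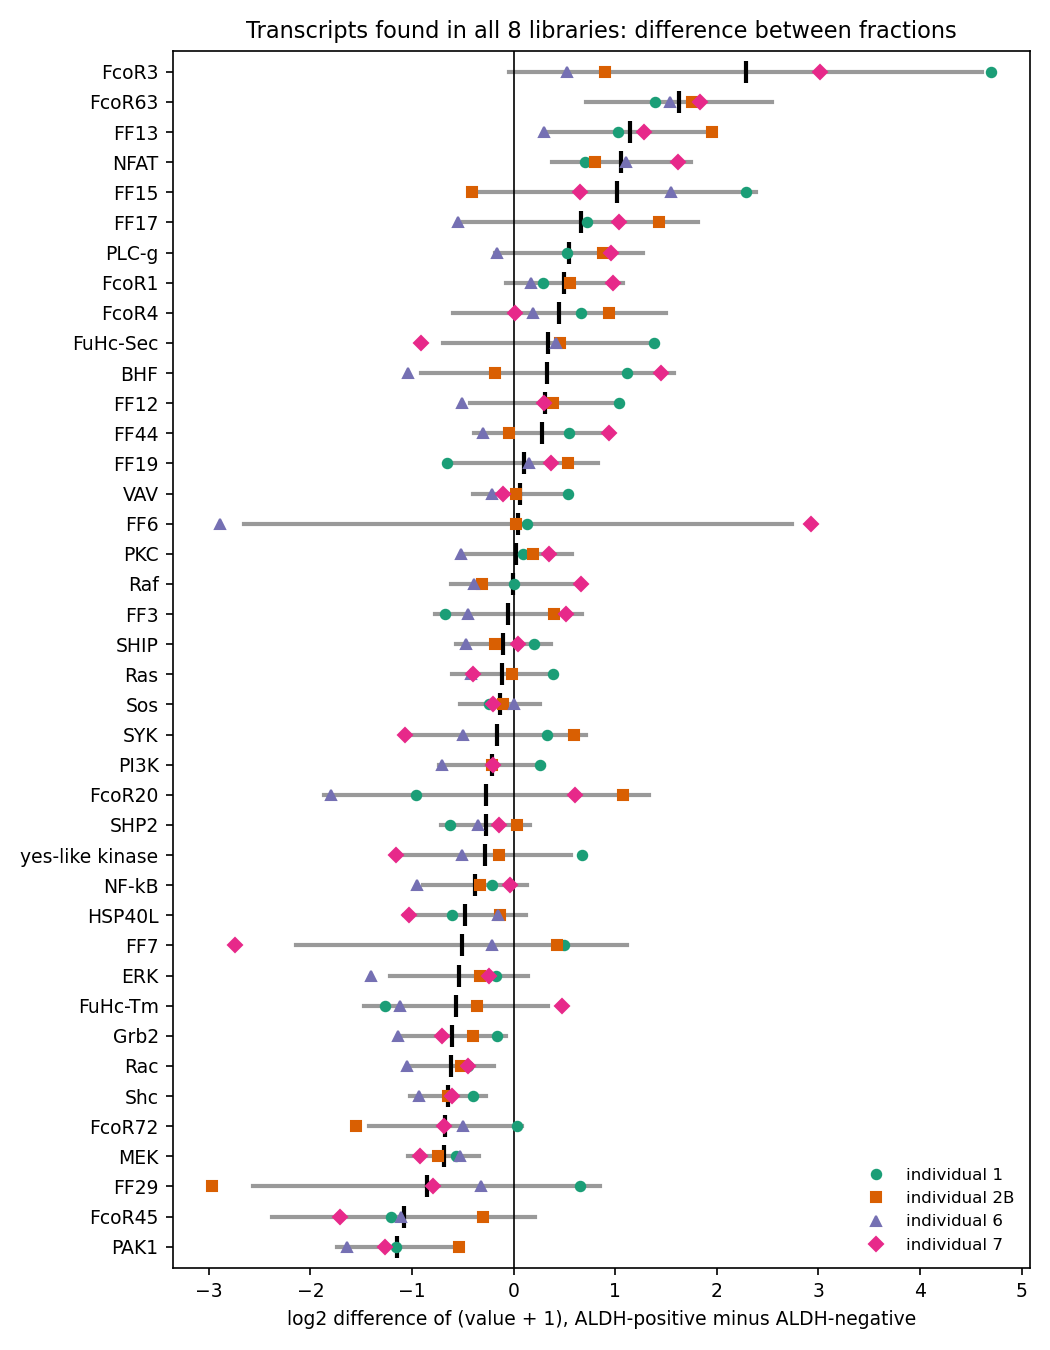
Log2 difference of (value + 1), positive minus negative, for the 40 transcripts found in all 8 libraries; coloured points are individuals, black ticks fitted means and grey bars 95% intervals without adjustment for the number of transcripts. FcoR63, FF13 and NFAT lie above 0 and PAK1, MEK, Shc, Rac and Grb2 below 0 with all 4 points and the interval.

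The sets of receptors found, at a value of at least 1, followed the individual. The Jaccard index, shared receptors over receptors found in either library, was 0.731, 0.813, 0.683 and 0.620 between the fractions of individuals 1, 2B, 6 and 7. It averaged 0.712 ± 0.0816 (SD, n = 4) within individuals and 0.510 ± 0.0893 (SD) over the 12 pairs of a positive and a negative library of different individuals. The exact one-sided permutation p over the 24 ways of pairing the fractions was 0.0417, the smallest possible. Over the receptors found in both fractions of an individual, log2 values correlated across transcripts at 0.858, 0.832, 0.881 and 0.727. The same correlation was not computed between individuals, so it cannot tell whether levels followed the individual. In the fractions of individuals 1, 2B, 6 and 7, 19 of 49, 21 of 61, 12 of 41 and 19 of 44 shared receptors differed by more than 2-fold.

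Individual 7 was the exception in these sets. Its negative library overlapped both libraries of individual 2B at 0.667, more than its own positive library at 0.620. It held 13 receptors that its positive library lacked: FF14, FF18, FF25, FF31, FF45, FcoR23, FcoR31, FcoR41, FcoR44, FcoR49, FcoR52, FcoR55 and FcoR59. Of these 13, 12 were found in both fractions of 2B, as were 18 of all 56 receptors missing from the positive library, the 13 included. FF14 for example measured 3297 in the negative library of 7, 0 in its positive library, and 10715 and 10930 in the negative and positive libraries of 2B. The 12 stood at 18.5% to 144% of their mean in 2B, with a median of 35.6%, and the 13 made up 9.14% of the receptor signal of that library. What the overlap comes from was not tested. Without individual 7 the mean index was 0.22 higher within than between individuals, against 0.20 with it, and 6 pairings allow no permutation p under 0.167.

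**Figure D5:**
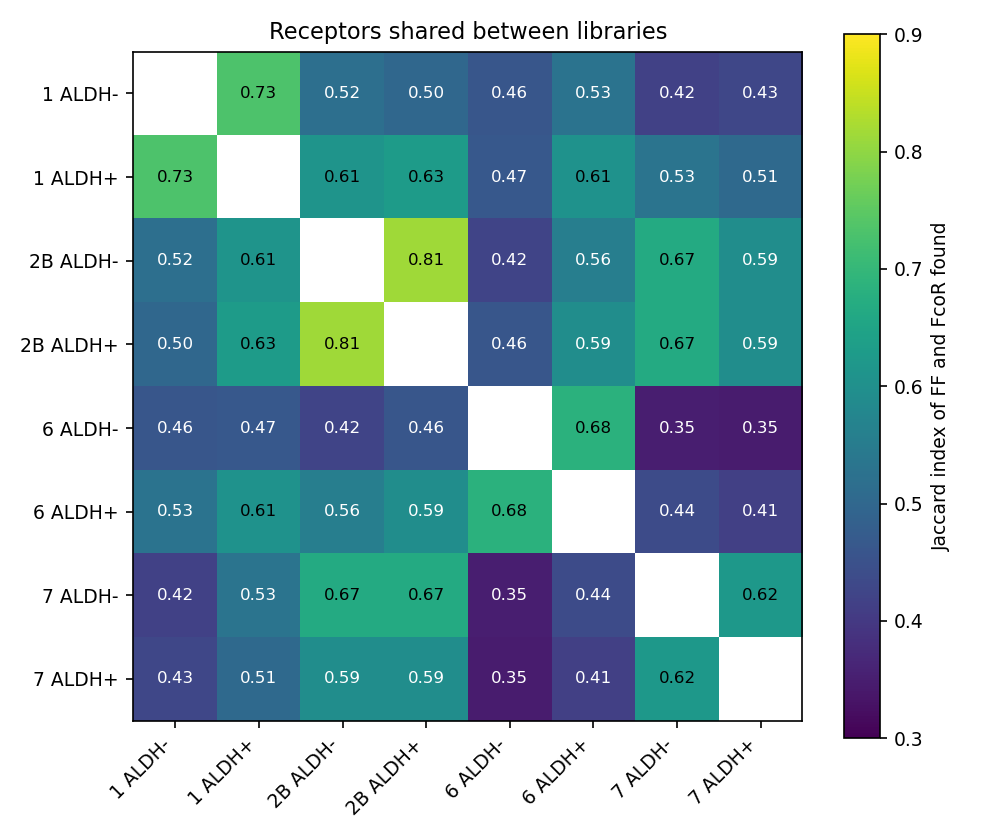
Jaccard index of the FF and FcoR transcripts found in each pair of the 8 libraries, with individuals in the order 1, 2B, 6 and 7 and the ALDH-negative (ALDH-) before the ALDH-positive (ALDH+) library. The index is 0.813 between the libraries of 2B and 0.620 between those of 7, whose negative library shares more with 2B, at 0.667.

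Positive fractions held more FcoR transcripts in 3 of 4 individuals and as many in the fourth. The numbers found were 33, 48, 29 and 36 in the negative and 43, 48, 39 and 41 in the positive fractions of individuals 1, 2B, 6 and 7. The means were 36.5 ± 8.19 and 42.8 ± 3.86 (SD, n = 4), with an exact permutation p of 0.25. Counted at a value of at least 200, they were 28, 43, 29 and 34 against 37, 40, 34 and 37. FF transcripts found were 19, 20, 14 and 21 in negative and 21, 20, 19 and 17 in positive cells, with no common direction. The smallest value not below 1 was 75.8, 77.7, 207 and 90.3 in negative and 44.6, 1.18, 62.6 and 13.6 in positive fractions. It was lower in every positive fraction, but it rests on 1 transcript per library and on the cut at 1. FcoR53 gave the 1.18 of individual 2B and was at 0.001 in the negative fraction of individual 7. The smallest value is therefore no measure of depth, and its part in the number found was not tested.

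Some receptors were found in only 1 fraction of an individual. The positive library alone held 15, 7, 17 and 14 receptors in individuals 1, 2B, 6 and 7, with median values of 649.8, 153, 799.5 and 681. The negative library alone held 3, 7, 2 and 13. Those of the positive library alone made up 4.79%, 0.404%, 7.73% and 2.81% of the receptor signal of the positive libraries. Of the 15 in individual 1, 11 were also found in both fractions of 2B, against 23 of all 62 receptors missing from its negative library, the 15 included. For the positive library of individual 6 it was 12 of 17, against 28 of 71, and for that of 7 it was 8 of 14, against 14 of 57. A lean to receptors of 2B was thus not limited to the negative library of 7.

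The difference between fractions was compared between the individuals labelled winner and loser as an interaction in limma. Of 89 transcripts, 0 passed (0%) and 3 had an unadjusted p under 0.05, FcoR55, FcoR26 and BHF, with a smallest adjusted p of 0.0696 for FcoR55. FcoR55 was at 1369, 932, 0 and 1293 in negative and 0, 859, 0 and 0 in positive cells. It was thus listed at 0 in the positive fraction of each loser and in both fractions of a winner. Its fit depends on the pseudocount of 1 against these zeros. With a pseudocount of 100 its adjusted p was 0.446. At that setting 0 of 89 transcripts passed and 5 had an unadjusted p under 0.05.

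The sort by integrin alpha-6 (IA6) also gave both fractions, of the individuals 81A and 81C, with no library shared with the ALDH sort. The replicate libraries of each individual and fraction were averaged on the log2 scale before the fit, so the IA6 contrast rests on 2 individuals. Its SE and p come from a joint fit with the ALDH libraries. They draw on the spread between the ALDH individuals too, and do not measure that of the IA6 individuals alone. Over 85 transcripts, 0 passed for IA6-positive against IA6-negative cells (0%), and 2 had an unadjusted p under 0.05. The difference between the ALDH and the IA6 contrast passed for 0 of 85 (0%), with 6 at an unadjusted p under 0.05, PAK1, Shc, Rac, FF19, FcoR1 and FuHc-Tm. PAK1 differed by 0.58 ± 0.34 (SE) in the IA6 sort, against -1.15 ± 0.23 (SE) in the ALDH sort, and the difference between both was -1.73 ± 0.41 (SE), adjusted p 0.260. NFAT stood at 0.81 ± 0.40 (SE) in the IA6 sort, the same sign as in the ALDH sort, with a difference between the sorts of 0.25 ± 0.49 (SE). Of the 80 transcripts with a difference in both sorts, 33 had the same sign, so NFAT does not stand for the rest.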

How the data were processed

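Per the labels, libraries were poly-A and paired-end. They name 2 RNA kits and 2 centres without saying which library used which, so batches could not be tested. The submitters' processing notes name kallisto, RSEM and Trim Galore; versions are not given in the sources used here. The signal values deposited by the authors are read as TMM-scaled TPM; the table's name states TMM, and TPM is inferred. The table has 137 rows and 158 columns, of which 81 match no label and were not used.

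Values were analysed as log2(value + 1), and log2 differences are on that scale, which compresses low values. Tests covered transcripts with a value of at least 1 in at least 4 of 8 libraries (3 of 6 without individual 7). limma 3.58.1 (R 4.3.3) was used with the individual as block, a variance trend and Benjamini-Hochberg adjustment over all transcripts tested, at a threshold of 0.05. The pairing comes from the labels: each individual gave both fractions, whose deviations from the group means correlated at 0.579, 0.638, 0.666 and 0.505 in individuals 1, 2B, 6 and 7. Nothing says that the ALDH sorts were repeated, so their p-values measure the spread between these individuals' differences. Totals, numbers found and overlaps were tested by exact permutation, two-sided within individuals or one-sided over pairings. These ran in Python 3.11.15 (pandas 2.3.3, numpy 2.4.6, scipy 1.17.1), and figures in matplotlib 3.10.9. The fits were tested on simulated data with known changes. At the adjusted threshold they recovered 7.25%, 36% and 45.9% of log2 changes of 1, 2 and 4. A transcript that did not pass may therefore still differ.

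Named transcripts are the 10 with the smallest p, the 8 FF and 8 FcoR with the highest mean, all signalling and Fuhc transcripts, those found in 3 or more individuals in one fraction only, and those with a difference of at least 1 (log2) in one direction in all 4; others (FF8, FcoR4, FcoR9, FcoR36, FcoR45, FcoR46, FcoR73, FcoR55, FcoR59, FcoR26, FF14, FF19 and the receptors found only in 1 library of individual 7) were named after their values were seen. The comparison, lists and tests were chosen with earlier results of these data known. Symbols of the reference annotation match no transcript name, so no position or sequence is given.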

Additional observations from a re-analysis of the deposited data

Results flagged for a closer look

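In 7 of 53 sets of 4 values, the value of 1 individual stood apart from the other three by Dixon's test. With normally distributed values, chance alone brings this about in about 1 of 20 sets. That rate does not hold for differences shaped by zeros, as those of the receptors below are. For FF1 the log2 difference was 10.50 in individual 1, where the transcript was listed at 0 in the negative fraction. FF22 and FcoR69 stood apart in individual 6, at 5.99 and 9.26, with 0 in the negative fraction. FcoR23 was at -9.72 in individual 7, with 0 in the positive fraction. FcoR42 was at 0.73 in individual 2B. FcoR42 was listed at 0 in both fractions of individuals 1 and 6, as was FF1 in both of individual 6, so their differences of 0 there mean that the transcript was not found. ERK and Rac stood apart in individual 6, at -1.40 and -1.05, the individual whose libraries differed most in their sums, a link that was not tested.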

How the results depend on the processing

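Besides the fit without pairing, alternatives changed the scaling, pseudocount, filter, variance model and individuals used. The number of transcripts past the adjusted threshold was 2 under each of the alternatives added after seeing the data, found in all 8 libraries and geometric mean scaling, and 0 under all others, leaving out any individual included. With no replicate block 0 passed, 7 had an unadjusted p under 0.05, and the smallest adjusted p was 0.0899. At an unadjusted p under 0.05 there were 14 under library sum scaling, 14 under signalling and Fuhc sum scaling and 15 with a pseudocount of 100, against 9. The median log2 difference of all transcripts moved from 0.06 to 0.19 under library sum scaling and to 0.33 under signalling and Fuhc sum scaling. NFAT, FF13, FcoR63, FcoR3, FcoR28, MEK, PAK1, Shc, Rac and Grb2 kept their sign under every alternative run. They are the transcripts with the smallest p in the main fit, and each had the same sign in every individual. Their kept sign was thus close to fixed in advance and lends no support.

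Of 43 named transcripts tested, 17 changed sign somewhere, none with a call. Under library sum scaling FF3 came to 0.0803, Raf to 0.12, SHIP to 0.031 and Ras to 0.0203. Under signalling and Fuhc sum scaling FF3 came to 0.23, PI3K to 0.0708, Raf to 0.28, the yes-like kinase to 0.00348, SHIP to 0.19, SHP2 to 0.0135, SYK to 0.12, Sos to 0.15 and Ras to 0.17. With a pseudocount of 100, FcoR23 came to 0.44. Leaving out 1 individual in turn gave -0.24 to 0.15 for FF3, -0.85 to 0.23 for FF7, -3.98 to 2.48 for FF25, -0.84 to 0.039 for FcoR21, -2.20 to 1.71 for FcoR23, -0.0994 to 0.15 for VAV, -0.23 to 0.12 for Raf, -0.60 to 0.00767 for the yes-like kinase, -0.20 to 0.0218 for SHIP, -0.0786 to 0.21 for PKC, -0.41 to 0.14 for SYK, -0.0397 to 0.79 for BHF and -0.0163 to 0.75 for FuHc-Sec.

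The summed FF difference was 0.45 with library sum scaling and no replicate block together (exact permutation p = 0.0286), and the summed signalling difference -0.38 with no replicate block (exact permutation p = 0.0286). Both permutations set aside the pairing of the design, within which no exact permutation p under 0.125 is possible. The Fuhc sum came to -0.0958 as a mean of log2 values, and to -0.0477 to 0.45 without 1 individual. The difference in FF transcripts found was -0.25 at a value of at least 200 and -0.67 to 2.33 without 1 individual. The excess of receptor overlap within individuals was 0.17 to 0.22 without 1 individual, where 6 pairings allow no p under 0.167. The cause of the other changes was not tested. Depth is unknown, so a value of 0 sets no limit on a transcript.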
